A study of Mus musculus with 6 samples.

Results

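The genes described here are 10 smooth and early muscle contractile genes, Acta2, Actc1, Tagln, Tagln2, Cnn1, Cnn2, Tpm1, Tpm2, Myl9 and Des, out of 18193 genes with a named probe set on the array. They were chosen as a list of gene symbols, with earlier results of these data known. Every probe set that the array's annotation assigns to 1 of these symbols was taken, which gave 21 probe sets. Mouse embryonic stem cells were differentiated in vitro toward paraxial mesoderm, the tissue that forms the somites, and profiled on 6 Affymetrix arrays, with 3 samples at day 4 and 3 at day 3. The time of differentiation is the only difference that the labels give between day 4 and day 3 cells. Both came from the 1 ES cell line E14 (129P2/OlaHsd background) carrying a Venus reporter of Msgn1, a transcription factor of the presomitic mesoderm. Both were grown on gelatin-coated plates in medium with 15% fetal bovine serum, 0.5% DMSO, R-spondin3 at 10 ng/mL to raise Wnt signalling and Noggin at 200 ng/mL to block BMP, and both were sorted for Venus before RNA was taken. RNA was extracted with Trizol or a column kit, and which sample had which is not stated, so extraction may also differ between days. Each array held 1 sample labelled as a biological replicate. Whether these were separate cultures is not given, so p-values measure only the spread between these samples, which may be technical. Values are MAS5 signal intensities on a linear scale, and levels of different probe sets are not compared with each other.

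Contractile cells pull on a lattice of actin filaments. Actins form the filaments, tropomyosins lie along them, transgelins and calponins bind and stabilise them, myosin regulatory light chains set the activity of the motor, and desmin forms the intermediate filaments of muscle. Acta2, Tagln and Cnn1 are best known as markers of smooth muscle, but they are also switched on for a time in embryonic mesoderm and in spreading cells. Many of these genes are targets of serum response factor (SRF), which binds the CArG box of their promoters and answers to serum and to the state of the actin cytoskeleton through myocardin-family cofactors.

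The promoter stretches that carry CArG boxes are shown because many of these genes are SRF targets. The part of these boxes in the changes was not tested. Promoters came from the RefSeq table of the GRCm38.p6 mouse assembly, in which 9 of the 10 genes, all but Tagln, were matched. A CArG box was searched as CC, then 6 bases that are each A or T, then GG, a pattern that is the same on both strands. It was present within the 250 bases before the start site in 3 of the 9 promoters, those of Actc1, Cnn2 and Myl9, and in 1.47% of all 32851 promoters. With 1 of the 6 inner bases allowed to be C or G, it was present in 4 of the 9, Acta2 being the fourth, and in 8.59% of all promoters. Tagln2, Cnn1, Tpm1, Tpm2 and Des had no match of either kind. The MCAT element (CATTCC on either strand), a binding motif of TEAD factors, was present in 3 of the 9, those of Acta2, Tagln2 and Tpm1, and in 12.6% of all promoters. The 4 stretches with a match are printed 5′ to 3′ toward the start site used in the table, with every CArG match of up to 1 inner C or G in capitals. They are chr19:34255374-34255623 (minus strand) for Acta2, chr2:114052876-114053125 (minus strand) for Actc1, chr10:79988350-79988599 (plus strand) for Cnn2 and chr2:156775214-156775463 (plus strand) for Myl9. The matches lay 84 to 75 and 34 to 25 bases before that site in Acta2, 47 to 38 bases before it in Actc1 for the strict match, 56 to 47 in Cnn2, and 161 to 152 in Myl9 for the strict match.
Acta2: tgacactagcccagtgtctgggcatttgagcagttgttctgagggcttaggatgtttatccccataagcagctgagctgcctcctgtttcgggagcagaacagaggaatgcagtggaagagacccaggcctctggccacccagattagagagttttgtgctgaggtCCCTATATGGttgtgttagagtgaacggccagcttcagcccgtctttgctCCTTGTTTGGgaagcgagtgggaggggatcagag
Actc1: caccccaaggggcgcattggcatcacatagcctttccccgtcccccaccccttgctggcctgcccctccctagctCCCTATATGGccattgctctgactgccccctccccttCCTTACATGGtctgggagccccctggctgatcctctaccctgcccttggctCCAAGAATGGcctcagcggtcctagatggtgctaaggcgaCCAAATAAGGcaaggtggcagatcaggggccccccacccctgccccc
Cnn2: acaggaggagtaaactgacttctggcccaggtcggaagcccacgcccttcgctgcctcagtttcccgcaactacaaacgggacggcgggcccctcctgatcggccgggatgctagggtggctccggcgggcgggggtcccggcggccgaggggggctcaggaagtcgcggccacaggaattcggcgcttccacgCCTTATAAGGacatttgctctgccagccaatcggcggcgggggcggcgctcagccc
Myl9: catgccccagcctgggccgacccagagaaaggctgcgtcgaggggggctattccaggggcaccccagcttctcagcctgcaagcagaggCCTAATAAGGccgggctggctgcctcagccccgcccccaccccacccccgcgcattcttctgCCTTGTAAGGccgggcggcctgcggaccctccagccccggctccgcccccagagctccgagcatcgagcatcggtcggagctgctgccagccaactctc

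Of the 10 contractile genes, 7 had lower signal at day 4, 1 (Des) had higher signal, and 2 (Acta2 and Tagln2) did not pass the test. Calls are limma adjusted p under 0.05, with each gene read from its brightest probe set and p-values adjusted over all 12285 genes whose mean log2 signal was above that of a signal of 13.5, the 40th percentile of all probe sets. All 10 genes were above this lower limit. Among all genes tested 10.7% were lower and 11.5% were higher by the same rule. The 10 genes were chosen with earlier results of these data known, so their counts are a description and not independent support. The median change of the 10 genes was -0.63 on the log2 scale (day 4 minus day 3, as for every change that follows), beside -0.01 over all genes tested. A change below 0 was found in 9 of the 10 genes, and in 6302 of the 12285 genes tested. All 3 day 4 arrays lay below all 3 day 3 arrays in 8 of the 10 genes, as they did in 20.6% of all genes tested. Leaving out day 3 replicate 1 gave 3 lower genes, leaving out day 3 replicate 3 gave 4, and Des was no longer called without either of them or without day 4 replicate 2 or 3. In these bulk samples, fewer cells expressing a gene and less RNA per cell cannot be told apart.

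**Figure D1:**
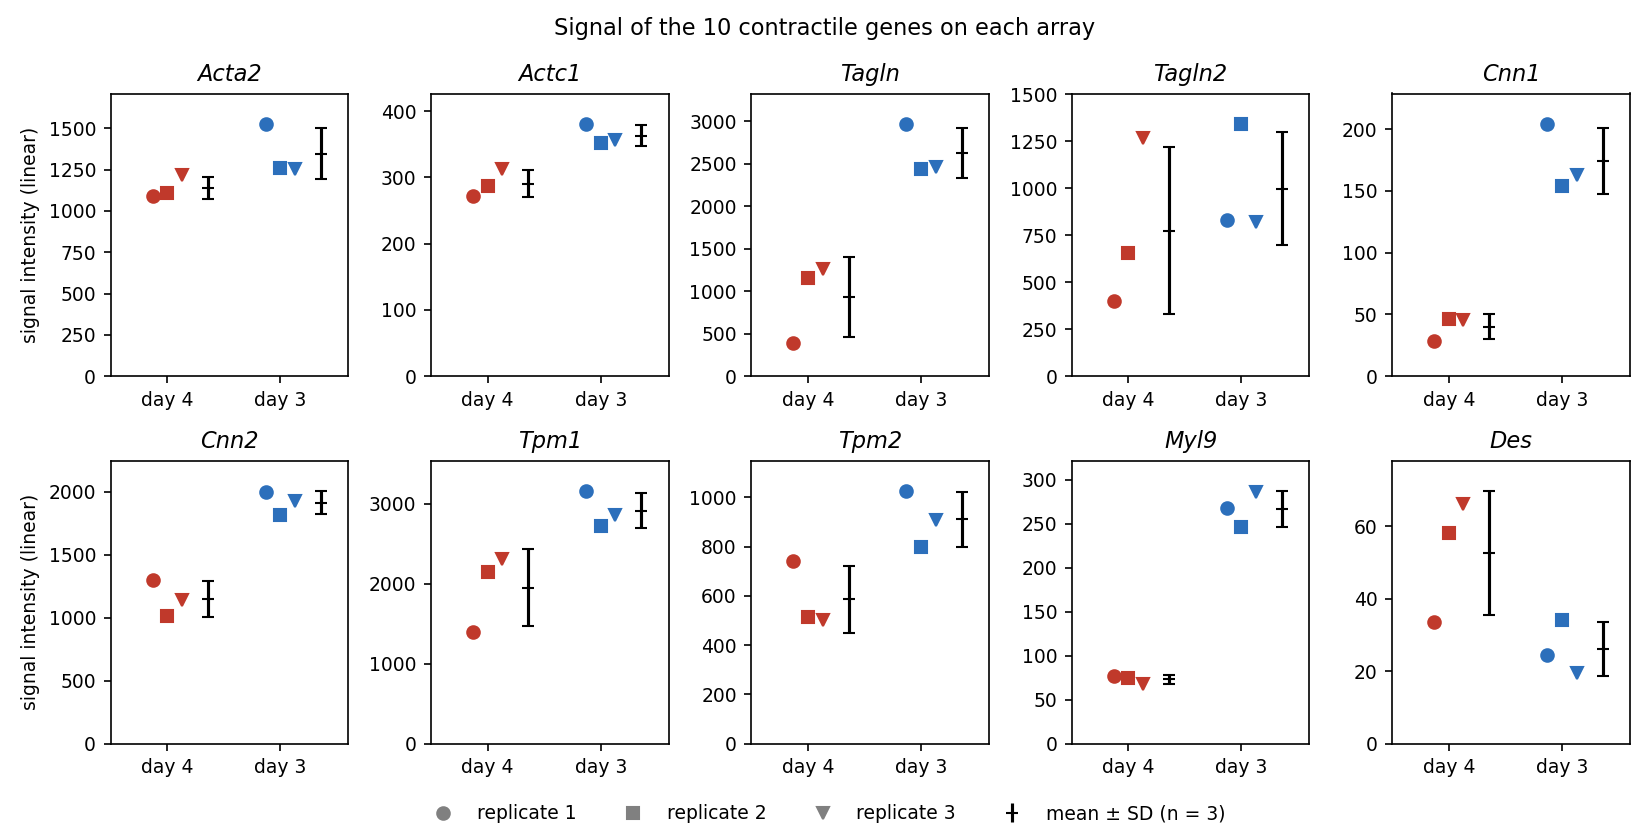
Signal intensity (linear axis from 0) of the 10 contractile genes on each array, day 4 in red and day 3 in blue, with marker shapes for replicates and bars for mean ± SD over 3 arrays. Day 4 and day 3 arrays overlap for Tagln2 and Des, and in the other 8 genes every day 4 array is below every day 3 array.

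One array, day 4 replicate 1, differed from the rest in the control probe sets that read both ends of a transcript. For Gapdh the 3′ signal divided by the 5′ signal was 14.0 on it, 2.63 to 3.19 on the remaining day 4 pair and 2.43 to 2.64 on the day 3 arrays. For Actb this quotient was 6.71 on it, 3.22 to 3.84 on the remaining day 4 pair and 2.77 to 3.28 on the day 3 arrays. These quotients are a sign of RNA or amplification quality, and their part in the changes was not tested. Of the 10 contractile genes, 7 were lowest on this array among the day 4 arrays, as were 38.3% of all genes tested, while Cnn2, Tpm2 and Myl9 were highest on it. Without this array the counts were again 7 lower and 1 higher.

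The calponins and the myosin light chain were lower at day 4 in every alternative analysis tried. Cnn1 encodes calponin 1, an actin-binding regulator of smooth muscle contraction. Its signal was 28.5, 46.4 and 45.8 on the day 4 arrays and 204.4, 154.4 and 163.1 on the day 3 arrays, so the lowest day 3 array was well above the highest day 4 array. The mean was 40.2 ± 10.2 at day 4 and 174 ± 26.7 at day 3 (SD, n = 3 each), and the change was -2.14 ± 0.21 (SE, as for all changes), a day 4 to day 3 ratio of 0.227 (limma adjusted p = 0.000197). Among the 12285 genes it had rank 27 counted from the most negative change. Cnn2, the calponin of many non-muscle cells, had signals of 1297, 1015 and 1140.0 on the day 4 arrays and 1998, 1818 and 1924 on the day 3 arrays. The days did not overlap, and the change was -0.74 ± 0.10 (limma adjusted p = 0.000827).

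Myl9 encodes a regulatory light chain of smooth muscle and non-muscle myosin II. Its signal was 77.4, 74.3 and 67.6 on the day 4 arrays and 267.5, 245.9 and 286.3 on the day 3 arrays. The replicates of each day lay close together and the days were far apart. The mean was 73.1 ± 5.02 at day 4 and 267 ± 20.2 at day 3 (SD, n = 3 each), and the change was -1.87 ± 0.12, a ratio of 0.274 (limma adjusted p = 2.0e-05), with rank 43 by the same count. Cnn1, Cnn2 and Myl9 passed in all 17 alternative analyses tried, and their changes ranged from -2.26 to -1.90 for Cnn1, -0.83 to -0.65 for Cnn2 and -1.92 to -1.81 for Myl9.

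The transgelins differed in how firmly they could be read. Tagln encodes SM22, an actin-bundling protein that is an early marker of smooth muscle. Its signal was 387, 1153 and 1256 on the day 4 arrays and 2969, 2441 and 2467 on the day 3 arrays. All day 4 arrays were low, and replicate 1 was the lowest by far. The change was -1.67 ± 0.37, a ratio of 0.315 (limma adjusted p = 0.0107), with rank 71. Without day 4 replicate 1 the change was -1.12, and the adjusted p was 1.4e-05. The call was lost without day 3 replicate 1 (adjusted p = 0.0543). Tagln2, the transgelin of many cell types outside muscle, had 402, 657 and 1267 on the day 4 arrays and 834, 1343 and 819 on the day 3 arrays from its brightest probe set. The days overlapped, and its change of -0.49 ± 0.35 did not pass (limma adjusted p = 0.362, 95% interval -1.28 to 0.31). Without day 4 replicate 3 it was -0.92 and passed (adjusted p = 0.0364), and without day 4 replicate 1 it was -0.09. A second Tagln2 probe set had 528, 622 and 754 on the day 4 arrays and 847, 706 and 859.9 on the day 3 arrays, a change of -0.35 ± 0.14 that did not pass either (adjusted p = 0.115 over all probe sets).

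The tropomyosins each have 4 probe sets, of which 1 of Tpm1 and 3 of Tpm2 were lower at day 4 when tested on their own. The brightest set of Tpm1, which makes isoforms for muscle and non-muscle filaments, had 1399.8, 2146 and 2306 on the day 4 arrays and 3154, 2726 and 2859.6 on the day 3 arrays. The day 4 arrays were lower, with replicate 1 the lowest. The change was -0.61 ± 0.16 (limma adjusted p = 0.0248), or -0.39 without day 4 replicate 1 (adjusted p = 0.00245), and it did not pass without any 1 of the day 3 arrays (adjusted p = 0.0997, 0.0577 and 0.0756 without replicates 1, 2 and 3). Its other 3 sets had changes of -0.27, -0.35 and -0.00 and did not pass, and the mean over the 4 sets gave -0.31 (adjusted p = 0.291).

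Tpm2, a tropomyosin of slow and smooth muscle and of fibroblasts, had 743, 514 and 501 on the day 4 arrays and 1024, 799.5 and 908 on the day 3 arrays from its brightest set. The highest day 4 array, replicate 1, came close to the lowest day 3 array. The change was -0.65 ± 0.16 (limma adjusted p = 0.0159), or -0.84 without day 4 replicate 1 (adjusted p = 0.000211). The call was lost when day 4 replicate 2 (adjusted p = 0.0538), day 4 replicate 3 (0.0517), day 3 replicate 1 (0.0712) or day 3 replicate 3 (0.0601) was left out. Of the other sets, 2 were also lower at day 4, with changes of -0.73 ± 0.11 and -0.82 ± 0.18 (adjusted p = 0.00291 and 0.0155 over all probe sets). The fourth set was at 44.1, 50.3 and 53.3 on the day 4 arrays and 46.0, 39.9 and 34.5 on the day 3 arrays. Its change of 0.30 ± 0.20 did not pass (adjusted p = 0.327), and it is the only Tpm2 set left when sets whose suffix marks probes shared between transcripts or related genes are put aside.

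**Figure D2:**
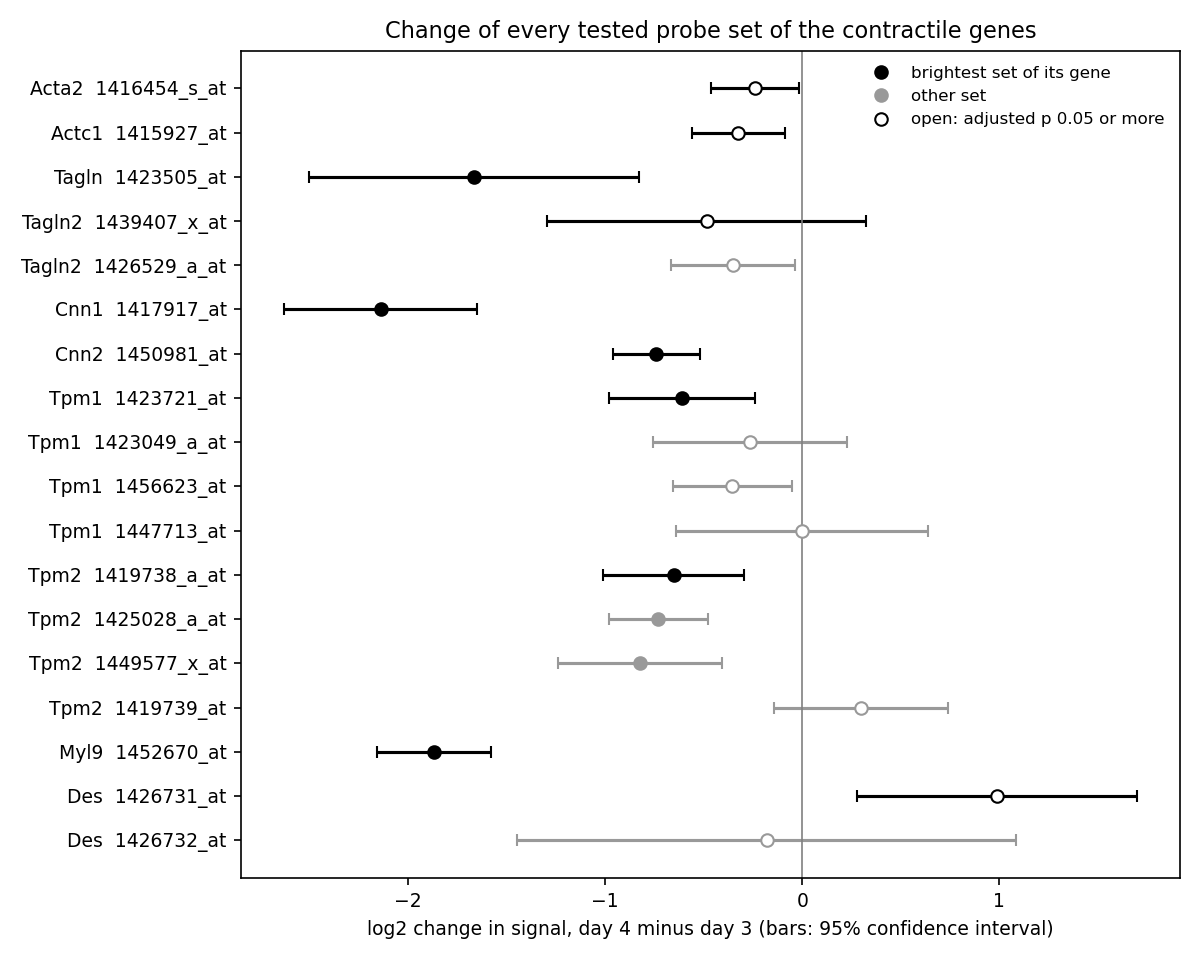
Log2 change in signal, day 4 minus day 3, of the 18 tested probe sets of the contractile genes, with 95% confidence intervals; black marks the brightest set of each gene, grey the others, and open circles did not pass at an adjusted p of 0.05 over all probe sets. Sets of Cnn1, Myl9 and Tagln lie far left, sets of 1 gene differ for Tpm1, Tpm2 and Des, and the 8 filled circles are all below 0.

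Of the actins, Actc1 was lower at day 4 by a small amount and Acta2 did not pass the test. Acta2 encodes smooth muscle actin, the gene most often used to mark smooth muscle and myofibroblasts. Its bright probe set had 1089, 1110.4 and 1215 on the day 4 arrays and 1527, 1259.1 and 1255 on the day 3 arrays. Every day 4 array was lower, but the gap between the days was smaller than the spread within day 3. The change was -0.24 ± 0.10, a ratio of 0.847, and did not pass (limma adjusted p = 0.107). Without day 3 replicate 1, the highest array, the change was -0.15 (adjusted p = 0.283). The set carries a suffix for probes that match more than 1 transcript, and the other 2 Acta2 sets were under the lower limit on both days. Actc1, the actin of heart and early skeletal muscle, had 272, 287 and 313 on the day 4 arrays and 381, 352 and 357 on the day 3 arrays. The days did not overlap, and the change of -0.32 ± 0.10 passed narrowly (limma adjusted p = 0.0469). That call was lost in 8 of 17 alternatives, among them each fit that left out an array other than day 4 replicate 1 (adjusted p 0.0554 to 0.125), and when every probe set was tested on its own (adjusted p = 0.0629).

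Des, which encodes desmin, was the only one of the 10 genes called higher at day 4. Its brighter set had 33.5, 58.0 and 66.2 on the day 4 arrays and 24.6, 34.2 and 19.6 on the day 3 arrays. Day 4 replicate 1 lay below day 3 replicate 2, so the days overlapped. The change was 0.99 ± 0.31, a ratio of 1.99 (limma adjusted p = 0.0494). Its call was lost in 10 of 16 alternatives, with adjusted p up to 0.461 (the mean over both sets) and, with an array left out, up to 0.158 (without day 3 replicate 3). Without day 4 replicate 1 the change was 1.29 (adjusted p = 0.00618). The second, dimmer set had 15.0, 13.7 and 10.2 on the day 4 arrays and 6.03, 22.7 and 22.1 on the day 3 arrays and did not pass (change -0.18 ± 0.56, adjusted p = 0.858).

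Of the 18 probe sets of these genes above the lower limit, 8 were lower at day 4 and 0 were higher (limma, adjusted over 27026 sets), against 7.78% lower among all sets tested. At an unadjusted p under 0.05, 1 set was higher, the brighter one of Des. The median change of the 18 sets was -0.42, beside 0.02 over all sets tested. The 8 lower sets were 3 of Tpm2 and 1 each of Tagln, Cnn1, Cnn2, Tpm1 and Myl9.

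**Figure D3:**
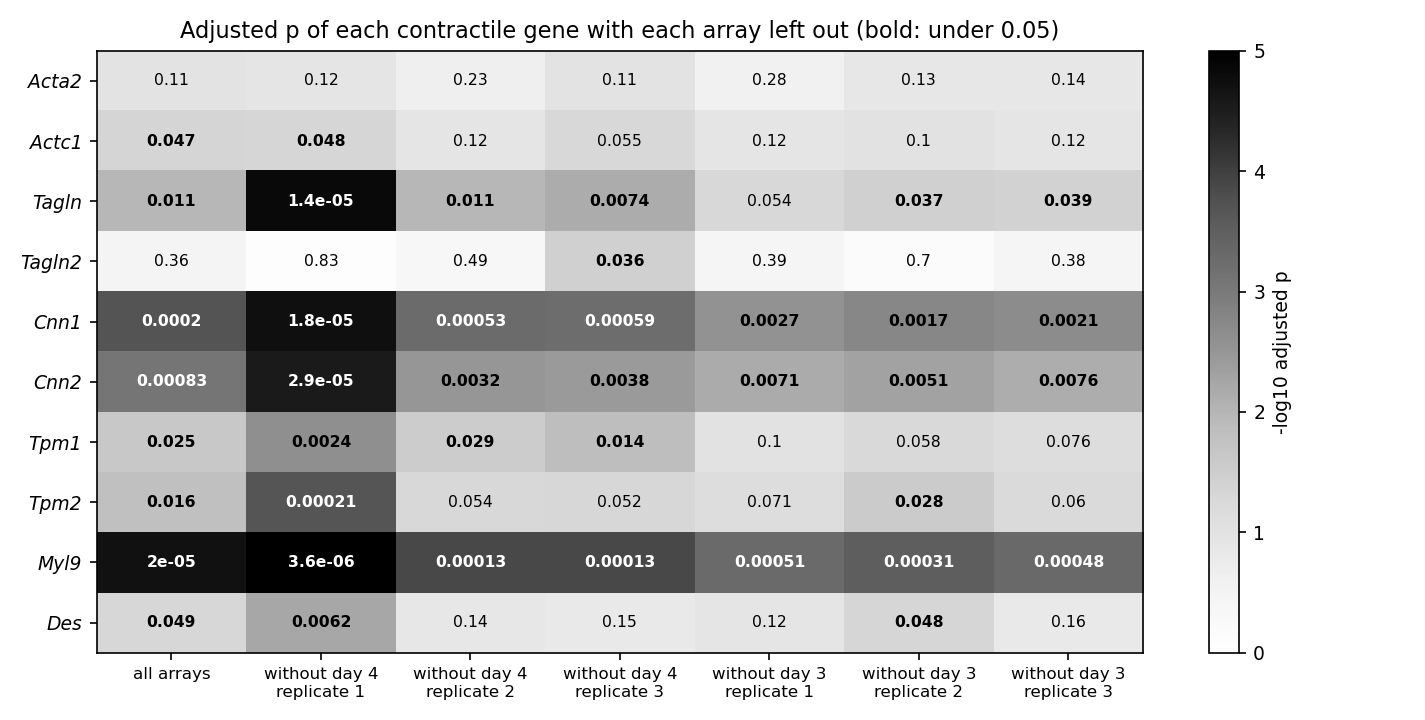
Adjusted p of each contractile gene in the fit to all 6 arrays and with each array left out, darker for smaller p and bold under 0.05. Cnn1, Cnn2 and Myl9 are under 0.05 in every column, Acta2 in none, and the other genes in some.

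Related genes within a family were compared by their ratio within each array. The log2 ratio of Cnn1 to Cnn2 was -5.51 to -4.45 at day 4 and -3.56 to -3.29 at day 3, a difference of -1.40. That of Tagln to Tagln2 was -0.05 to 0.81 at day 4 and 0.86 to 1.83 at day 3, a difference of -1.18. In both families the ratio was lower on every day 4 array than on every day 3 array, with an exact 2-sided permutation p of 0.1, the smallest that 3 against 3 arrays allow (0.2 adjusted over 4 pairs). The ratios of Acta2 to Actc1 (difference 0.08, exact permutation p = 0.4) and of Tpm1 to Tpm2 (0.04, exact permutation p = 1) overlapped between days. The difference for Tpm1 and Tpm2 was 0.45 without day 4 replicate 1 and turned to -0.12 and -0.19 without day 4 replicate 2 or 3.

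**Figure D4:**
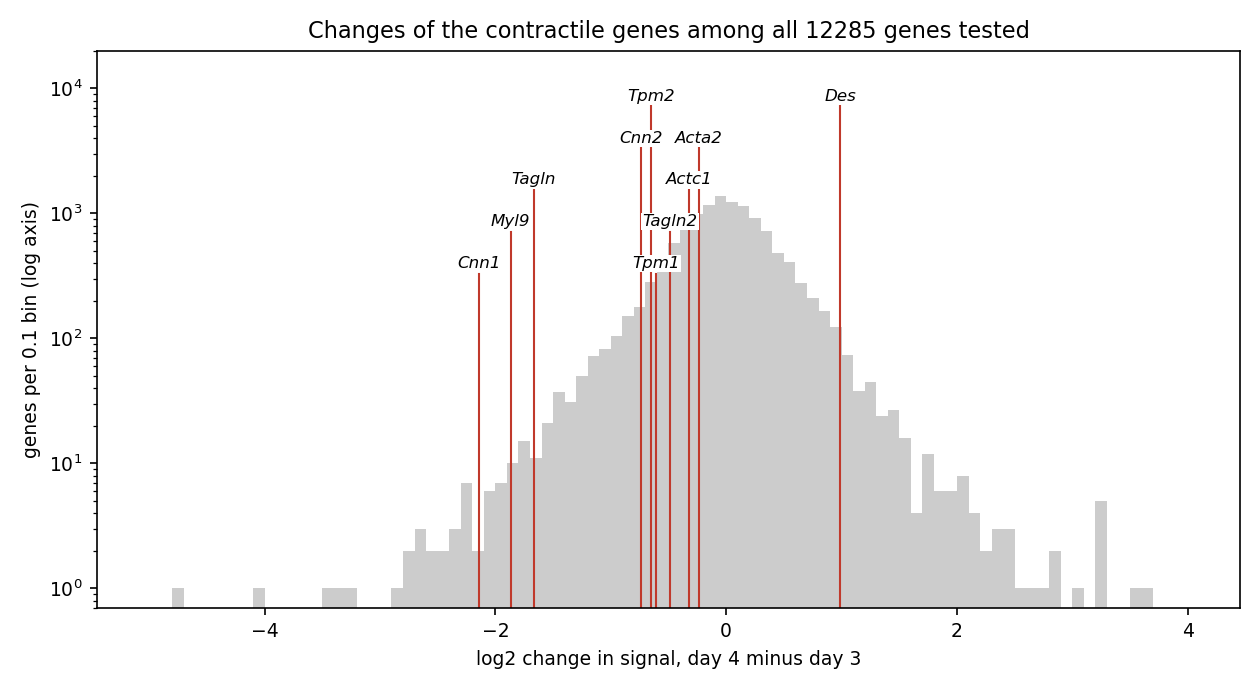
Histogram (log count axis) of the log2 change, day 4 minus day 3, of all 12285 genes tested in bins of 0.1, with red lines at the 10 contractile genes. Cnn1, Myl9 and Tagln lie in the lower tail at -2.14, -1.87 and -1.67, Des lies at 0.99, and the other 6 lie between -0.74 and -0.24.

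Other genes of the cytoskeleton and of SRF were read from lists grouped by function. The lists were written with earlier results of these data known, so their counts are a description and not independent support. Of 13 tested genes for actin, tropomyosin, myosin light chain and filament proteins outside the 10, 6 were lower and 0 higher at day 4 (limma, 0 higher also at an unadjusted p under 0.05), with a median change of -0.19. Among all genes tested 10.7% were lower and 11.5% were higher. Acta1, skeletal muscle actin, had 167.0, 140.5 and 170.0 on the day 4 arrays and 449.9, 394.4 and 414.4 on the day 3 arrays, a change of -1.40 ± 0.12 (limma adjusted p = 7.75e-05). Tpm4, a non-muscle tropomyosin, and Vim, which encodes vimentin of mesenchymal cells, each changed by -0.32 (limma adjusted p = 0.00485 and 0.0119).

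Of 28 tested SRF target genes of adhesion and signalling, 13 were lower and 4 higher (10.7% and 11.5% of all genes), with a median change of -0.42. The 4 higher ones are near the share over all genes. Vcl, which encodes vinculin of focal adhesions, had 2294, 2523 and 2509 on the day 4 arrays and 4808, 4709 and 4689.9 on the day 3 arrays, a change of -0.96 ± 0.06 (limma adjusted p = 1.88e-05). Pdlim7, a PDZ and LIM protein of actin stress fibres, changed by -1.20 ± 0.11 (limma adjusted p = 0.000152). The immediate early gene Egr1 went the other way, with 1809, 1800.2 and 1826 on the day 4 arrays and 1109.7, 918 and 908 on the day 3 arrays, a change of 0.90 ± 0.09 (limma adjusted p = 0.000208). All its day 4 arrays lay above all its day 3 arrays.

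Of 11 tested genes for SRF, its cofactors and upstream regulators, 2 were lower and 1 higher, against 10.7% and 11.5% of all genes. Srf itself had 305, 428 and 371 on the day 4 arrays and 593, 527 and 598 on the day 3 arrays, a change of -0.65 ± 0.13 (limma adjusted p = 0.00716). Rhoa, the GTPase that promotes actin assembly, changed by -0.58 ± 0.09 and Elk3, an ETS partner of SRF, by 0.84 ± 0.18 (limma adjusted p = 0.00234 and 0.00931).

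Of 14 other smooth muscle genes on the array, 7 were under the lower limit, and of the 7 tested 0 were lower and 1 was higher at day 4, with 0 lower also at an unadjusted p under 0.05 (limma) and a median change of 0.13. With 10.7% of all genes lower and 11.5% higher, counts over 7 genes are near those of all genes and say nothing particular to this list. Of the 7 genes that were not tested, Actg2 had every day 4 array below every day 3 array, Aoc3 had every day 4 array above, and the other 5 overlapped. Actg2, the enteric smooth muscle actin, had 1.64, 6.61 and 11.1 on the day 4 arrays and 12.8, 17.8 and 21.1 on the day 3 arrays. Aoc3, an amine oxidase of smooth muscle and fat, had 13.7, 7.58 and 14.2 on the day 4 arrays and 5.94, 0.792 and 1.96 on the day 3 arrays. Myh11, the myosin heavy chain that defines mature smooth muscle, was also not tested, with 14.0, 10.6 and 7.82 on the day 4 arrays and 16.1, 9.10 and 7.76 on the day 3 arrays. Myocd, the myocardin cofactor of SRF, was not tested either, with 16.2, 27.3 and 27.4 on the day 4 arrays and 21.1, 1.41 and 4.25 on the day 3 arrays. The gene called higher was Itga8, an integrin subunit also made by other mesenchymal cells, with a change of 0.58 ± 0.11 (limma adjusted p = 0.00639). Hspb6, a small heat shock protein, and Cald1, which encodes caldesmon, had changes of 0.64 and 0.13 that did not pass (adjusted p = 0.096 and 0.205). The summed signal of the list was 4001 to 4621 at day 4 and 3574 to 3714 at day 3. Most of it came from Cald1 (mean 2610 at day 4 and 2379 at day 3) and Itga8 (1536 and 1024). The sum therefore says little of the other genes.

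Markers of other cell types that use these contractile proteins were read in the same way, and their part in the changes of the 10 genes was not tested. Of 22 tested cardiac genes, 7 were higher, 1 was lower and 14 did not pass (11.5% and 10.7% of all genes were higher and lower), with a median change of 0.04 and a summed signal of 2226 to 2361 at day 4 and 1601 to 1683 at day 3. Isl1 and Tbx20, transcription factors of heart progenitors, had changes of 1.16 ± 0.10 and 1.71 ± 0.18 (limma adjusted p = 0.000107 and 0.000289). Gata6, a transcription factor of heart and endoderm, had a change of -0.97 ± 0.12 (limma adjusted p = 0.000535). Large parts of the summed signal came from Isl1 (mean 517 at day 4 and 232 at day 3), Tbx20 (487 and 150) and Gata6 (202 and 394). The cardiac sum therefore says little of the sarcomere genes. Of the sarcomere genes in this list, Tnni1 and Myl7 were called higher, and no other tested one passed. Changes below 0 were those of Myh6 (-1.16), Myl4 (-0.40), Actn2 (-0.34), Tnnt2 (-0.33), Myl2 (-0.20), Myl3 (-0.16), Tnnc1 (-0.14) and Mybpc3 (-0.01). Those of Tnni3 and Ttn were 0.42 and 0.16. Tnni1, a troponin of slow skeletal and embryonic heart muscle, had 31.3, 53.6 and 60.6 on the day 4 arrays and 5.53, 3.90 and 5.98 on the day 3 arrays, a change of 3.21 ± 0.40 (limma adjusted p = 0.000644). Myl7, the atrial myosin light chain, had 99.0, 61.7 and 80.8 on the day 4 arrays and 40.9, 41.0 and 41.4 on the day 3 arrays, a change of 0.94 ± 0.20 (limma adjusted p = 0.00872). Every day 4 array was above every day 3 array for both genes. All day 3 signals of Tnni1 were under the lower limit of 13.5, so it was tested only through its high day 4 arrays. Its call is therefore no independent support for a rise, and the size of its change is uncertain. The cardiac troponin gene Tnnt2 was near the lower limit, at 14.1 ± 8.59 on day 4 and 15.9 ± 3.55 on day 3 (SD, n = 3 each), and did not pass (adjusted p = 0.680). Of 19 skeletal muscle genes, 14 were under the lower limit, Myf5, Myog and Myf6 among them, and of the 5 tested 0 were lower and 1 was higher (limma, 0 lower also at an unadjusted p under 0.05). That gene was Mylpf, a fast skeletal myosin light chain, with a change of 0.68 ± 0.22 (limma adjusted p = 0.0494). Myod1 and Cdh15, a myogenic factor and a muscle cadherin, had changes of -0.23 and -0.29 that did not pass (adjusted p = 0.538 and 0.733). The summed skeletal signal was 160.4 to 247.8 at day 4 and 187.3 to 215.8 at day 3. The value of 247.8 was on day 4 replicate 1, the array with the high 3′ to 5′ quotients. That array also set an end of the day 4 range in every other list that was summed.

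Of 7 tested fibroblast and mural cell genes, 1 was lower and 0 were higher (limma, 0 higher also at an unadjusted p under 0.05), with a median change of -0.45 and a summed signal of 615 to 751 at day 4 and 795 to 854 at day 3. Among all genes 10.7% were lower and 11.5% higher, so 1 of 7 is near the share over all genes. The lower one was Pdgfrb, the PDGF receptor of mural and mesenchymal cells, with 225.1, 187.5 and 165.2 on the day 4 arrays and 265.8, 299.6 and 288.6 on the day 3 arrays, a change of -0.57 ± 0.13 (limma adjusted p = 0.0134). Thy1 and Col1a2, a surface marker and a collagen of fibroblasts, had changes of -0.82 and -0.58 that did not pass (adjusted p = 0.0529 and 0.134). Of 7 tested genes of endothelium and blood, 2 were lower and 1 was higher, with a median change of -0.05, counts too few to set apart from those shares. Kdr, a VEGF receptor, had a change of 1.19 ± 0.14, and Etv2 and Lmo2, regulators of blood and vessel progenitors, had changes of -0.94 ± 0.15 and -0.54 ± 0.12 (limma adjusted p = 0.000522, 0.00196 and 0.0107). The endothelial markers Pecam1, Tek and Tie1 were under the lower limit, and the summed signal of the list was 843 to 1081 at day 4 and 841 to 916 at day 3.

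Of 14 genes of paraxial mesoderm, the labelled fate, 13 were above the lower limit. Of these, 6 were higher and 1 was lower (11.5% and 10.7% of all genes), with a median change of 1.08. The 1 lower gene is near the share over all genes. Among the higher genes, Meox1 had 72.3, 53.2 and 40.5 on the day 4 arrays and 13.9, 4.20 and 7.57 on the day 3 arrays. Its day 3 mean of 8.55 was under the lower limit of 13.5, so it was tested only through its high day 4 arrays. Its call is therefore no independent support for a rise. Foxc2, the gene not tested, had 80.8, 55.6 and 69.6 on the day 4 arrays and 1.04, 1.59 and 1.37 on the day 3 arrays. The summed signal of the list was 5779 to 6028 at day 4 and 3324 to 3574 at day 3. Its largest part came from Rspo3, with a mean of 2695 at day 4 and 1275 at day 3. Aldh1a2, the retinoic acid synthesising enzyme of the somites, had 174.0, 206.0 and 163.7 on the day 4 arrays and 21.5, 13.5 and 24.6 on the day 3 arrays. Its change was 3.23 ± 0.23, and Mesp2, a segmentation factor, and Rspo3, which encodes R-spondin3, had changes of 1.65 ± 0.12 and 1.08 ± 0.08 (limma adjusted p = 3.64e-05, 3.72e-05 and 5.09e-05). Msgn1, the gene behind the sort, had 25.2, 36.2 and 38.3 on the day 4 arrays and 83.0, 57.2 and 83.4 on the day 3 arrays, a change of -1.17 ± 0.24 (limma adjusted p = 0.00723).

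**Figure D5:**
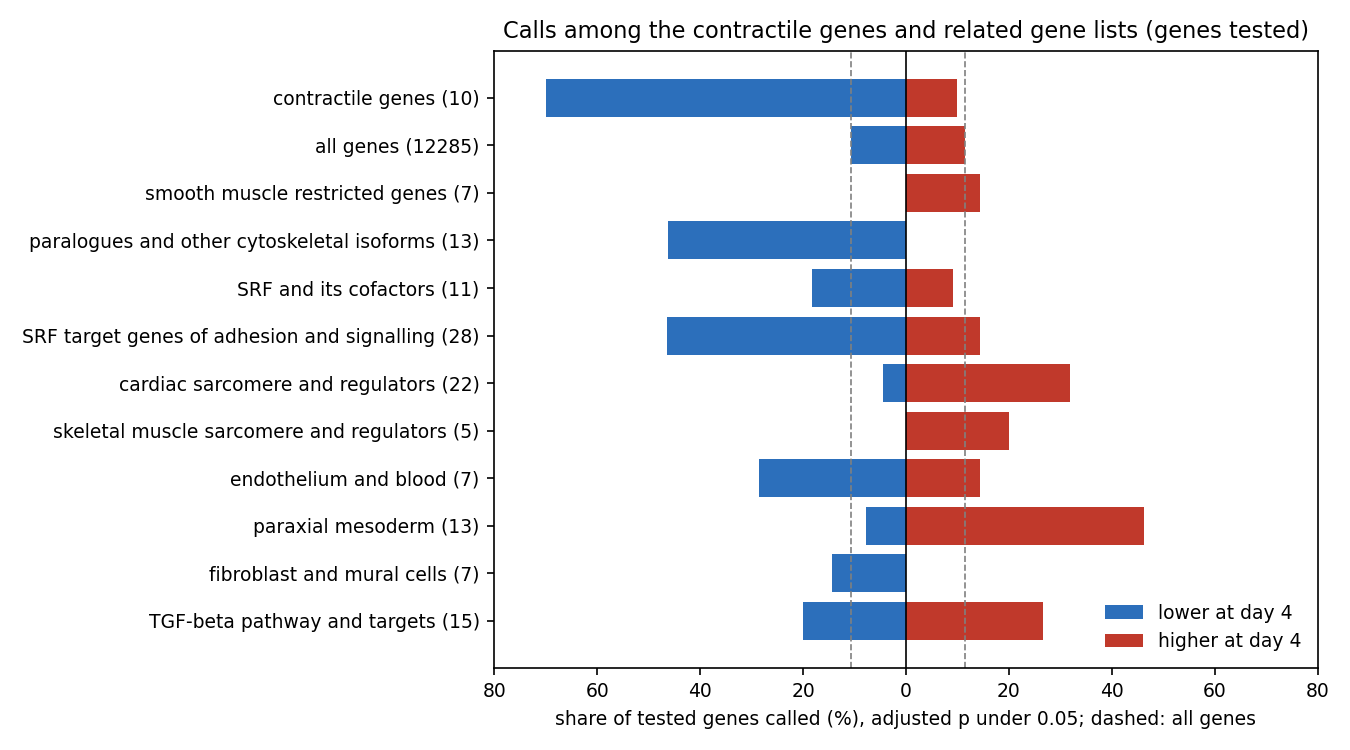
Share of tested genes (%, number tested in brackets) that were lower (blue, left) or higher (red, right) at day 4 at an adjusted p under 0.05, for the contractile genes, all genes and 10 lists; dashed lines mark all genes, 10.7% and 11.5%. Lower calls make up 7 of 10 contractile genes, lists of 5 or 7 genes rest on 1 to 3 calls each, and higher calls are the more frequent ones among paraxial mesoderm and cardiac genes.

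The genes whose log2 signal over the 6 arrays was most like that of 2 members were listed by Pearson's r, as a description of arrays that share their day. For Acta2 they were Mrpl20 (r = 0.992), Ehbp1l1 (0.991), Tut1 (0.989), Thap1 (0.986) and Sdhd (0.984), and none of the 5 passed the day 4 against day 3 test. For Tagln they were Rrp1, Rsl1d1, P4hb and Stard7 (r = 0.998 each) and Gpat3 (0.997), of which Rsl1d1, P4hb and Gpat3 were lower at day 4, with changes of -0.49, -0.36 and -1.36 (limma adjusted p = 0.0221, 0.0191 and 0.0327). Tagln was by far the lowest on day 4 replicate 1, the array with the high 3′ to 5′ quotients. Such an r therefore depends on that array, and the part of RNA quality was not tested.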

How the data were processed

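RNA of Venus-positive cells was amplified in a double round and hybridised to 1 Affymetrix array per sample, per the labels' protocols; RNA was extracted with Trizol or a column kit, and which sample had which is not stated. The deposited values are MAS5 signal intensity on a linear scale, 1 value for each of 45101 probe sets, per the submitters' processing notes; the scaling target, version and any detection calls were not stated there. The trimmed mean of each array, leaving out 2% at each end, was 160.4 to 162.1. The number of arrays limits the precision.

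Probe sets were named from the platform annotation: 34945 had 1 symbol, 932 had several and were not used, 9160 were unnamed, and 64 were controls. RefSeq matched 34741 by Entrez ID. Of a gene's probe sets, the brightest by mean log2 signal was used. The log2 signals were tested with limma 3.58.1 in R 4.3.3 (lmFit, eBayes with trend), day 4 minus day 3, with Benjamini-Hochberg adjustment over the 12285 genes above the 40th percentile and a threshold of 0.05. Ratios of related genes were tested by exact permutation. The fit was tested on simulated data. No 2 arrays held identical values.

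The members and lists were chosen with earlier results of these data known. All 10 members are named, with up to 3 genes of each list by smallest p, and the 5 genes most like Acta2 and Tagln. Msgn1, the cardiac sarcomere genes (Tnni1, Myl7 and Tnnt2 among them) and the markers under the lower limit fall outside this rule. Meox1, Smad2, Smad3, Smad7 and Tgfbr2 do too. All of these were chosen after their values were seen. Alternatives changed the offset, normalization, filter, probe sets, variance model, array weights, replicate block and threshold, or left out an array.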

Additional observations from a re-analysis of the deposited data

How the results depend on the processing

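Of the calls of single contractile genes, those of Cnn1, Cnn2 and Myl9 passed in all 17 alternatives, Tagln kept its call in 15, Tpm1 in 12, Tpm2 in 11, Actc1 in 9 of 17 and Des in 6 of 16. The count of higher contractile genes was 0 rather than 1 with quantile normalization, median centring, with the filter dropped or moved to the 60th percentile (where Des was not tested), the mean over probe sets, without probe sets of shared suffix, or with eBayes without trend, and 0 to 1 with an array left out. The count of lower ones was 3 rather than 7 with eBayes without trend and 3 to 7 with an array left out, and their called probe sets numbered 5 rather than 8 without sets of shared suffix and with eBayes without trend, and 4 to 9 with an array left out. The median change of the contractile genes was -0.45 with the mean over probe sets and -0.74 to -0.58 with an array left out, and that of all genes was -0.03 with quantile normalization, -0.04 with median centring, -0.02 with no filter, -0.00097 at the 60th percentile and -0.01 without sets of shared suffix. Over all genes, 2729 changed, against 1796 with the mean over probe sets and 4312 with array quality weights (higher 1411, against 865 and 2163; lower 1318, against 2149 with weights), and 1582 to 3530 with an array left out (higher 866 to 1750, lower 716 to 1780). Without sets of shared suffix the change of Tpm2 was 0.30 (limma adjusted p = 0.317) and Tpm1 over Tpm2 was -0.91, while Acta2 and Tagln2 could not be tested. With day 4 replicate 1, 2 or 3 left out, Tpm1 over Tpm2 was 0.45, -0.12 and -0.19 in that order. The cause was not tested.

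Same-numbered samples did not deviate together (correlations 0.067, 0.011 and -0.00051), so the numbers were not taken as pairs; with the replicate block 2884 genes changed and 6 contractile genes were lower and 1 higher, Actc1 losing its call (adjusted p = 0.0655). Dim probe sets limit what can be read, as for both sets of Des and the markers under the lower limit.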

Other observations

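Genes of the TGF-beta pathway, a known inducer of smooth muscle contractile genes, moved in both directions between the days. Of 15 tested, 3 were lower and 4 higher at day 4 (10.7% and 11.5% of all genes), with a median change of 0.21. Pmepa1, a feedback inhibitor induced by the pathway, had 141.0, 126.8 and 109.1 on the day 4 arrays and 369, 417 and 414 on the day 3 arrays. Every day 4 array was well below every day 3 array, with a log2 change of -1.68 ± 0.13 (SE, limma adjusted p = 4.33e-05). The co-receptor gene Tgfbr3 had a change of -1.23 ± 0.12 (limma adjusted p = 0.000152). The ligand gene Tgfb2 had 614, 635 and 611 on the day 4 arrays and 431, 391 and 305 on the day 3 arrays, a change of 0.74 ± 0.13 (limma adjusted p = 0.00353). Smad3, Smad7 and Tgfbr2 were also higher, with changes of 0.59, 0.55 and 0.57 (limma adjusted p = 0.0081, 0.0143 and 0.0237). Smad2 was lower, with a change of -0.39 (limma adjusted p = 0.0274). Pmepa1 alone therefore does not stand for the list. The relation of these genes to the contractile genes was not tested.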
